A study of Mus musculus with 16 samples.

Results

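The Cyp2d gene cluster of mouse liver was examined at 8 genes on chromosome 15 (Cyp2d9, Cyp2d10, Cyp2d11, Cyp2d12, Cyp2d22, Cyp2d26, Cyp2d34 and Cyp2d40). DNase hypersensitive sites (DHS), short stretches of open chromatin that DNase I cuts readily, were taken from the gene body and 20 kb on each side of every gene, and DHS of different lists were joined into 1 region where they overlapped by at least 1 bp. This gave 31 regions of 51482 in the genome, in mm9 coordinates. Liver nuclei came from mice of the inbred strains C57BL/6J (called B6) and CAST/EiJ (called CAST), of either sex, labelled as 8 weeks old, and the labels name no engineered allele or treatment. The lists serve to compare open chromatin between the sexes within each strain and between the strains within each sex. Nuclei were digested with 32 U of DNase I. The 16 libraries, 4 for each sex and strain, were pooled by the authors into 4 DHS lists (male B6, female B6, male CAST and female CAST), so each group had 1 list, no spread between animals could be estimated from the lists, and no difference below was tested.

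Cyp2d genes encode cytochrome P450 enzymes, membrane-bound monooxygenases that hydroxylate drugs and steroids in hepatocytes with electrons passed on by P450 oxidoreductase. The mouse carries a tandem array of Cyp2d genes where humans rely on CYP2D6, an enzyme that clears many prescribed drugs. Cyp2d9 is a steroid hydroxylase known for higher expression in male than in female mouse liver, a difference that follows the sex-specific pattern of growth hormone release and its effector STAT5.

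The 8 genes lay in 3 groups. Cyp2d22 (chr15:82200958-82210690, minus strand), Cyp2d11 (chr15:82219584-82224452, minus strand), Cyp2d10 (chr15:82233276-82237624, minus strand) and Cyp2d9 (chr15:82282807-82287257, plus strand) came first. Cyp2d12 (chr15:82385538-82389843, plus strand) and Cyp2d34 (chr15:82446395-82451337, minus strand) followed. Cyp2d40 (chr15:82590265-82594613, minus strand) and Cyp2d26 (chr15:82620537-82624675, minus strand) lay at the far end. Coding sequences were 78.0% to 94.7% identical over the 28 gene pairs. Among Cyp2d9, Cyp2d10, Cyp2d11, Cyp2d12 and Cyp2d34 they were 88.8% to 94.7% identical over 10 pairs, with Cyp2d10 and Cyp2d11 the closest pair.

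The 300 bases from 250 before to 50 after the start site are shown for Cyp2d10, whose start site lay in a DHS in both male lists, and for its neighbours Cyp2d9 and Cyp2d11, whose start sites lay in none. Capitals mark the bases of Cyp2d9 that have no match in Cyp2d10 and the bases of Cyp2d10 and Cyp2d11 that have no match in Cyp2d9, each read along its own strand in mm9. The Cyp2d9 and Cyp2d10 sequences were 82.9% identical with 48 bases unmatched in each, and Cyp2d11 was 84.5% identical to Cyp2d9 with 33 bases unmatched. RefSeq promoter entries of the GRCm38.p6 assembly were held for 5 members (Cyp2d9, Cyp2d10, Cyp2d11, Cyp2d26 and Cyp2d40), and each was found letter for letter in the mm9 sequence of the cluster.
Cyp2d9 promoter, chr15:82282557-82282856, plus strand: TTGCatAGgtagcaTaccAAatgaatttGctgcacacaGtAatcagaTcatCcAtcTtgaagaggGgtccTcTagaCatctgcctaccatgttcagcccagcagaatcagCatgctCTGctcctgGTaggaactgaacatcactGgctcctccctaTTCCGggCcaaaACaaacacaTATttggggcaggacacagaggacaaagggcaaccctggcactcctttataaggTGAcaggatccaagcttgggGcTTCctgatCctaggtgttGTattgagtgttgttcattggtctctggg
Cyp2d10 promoter, chr15:82237575-82237874, minus strand: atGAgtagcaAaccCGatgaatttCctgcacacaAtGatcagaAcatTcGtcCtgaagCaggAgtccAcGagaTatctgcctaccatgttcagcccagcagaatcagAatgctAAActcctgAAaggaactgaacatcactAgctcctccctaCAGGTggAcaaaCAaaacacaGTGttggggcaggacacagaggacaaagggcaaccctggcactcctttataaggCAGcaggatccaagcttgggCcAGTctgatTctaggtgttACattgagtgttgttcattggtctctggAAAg
Cyp2d11 promoter, chr15:82224403-82224702, minus strand: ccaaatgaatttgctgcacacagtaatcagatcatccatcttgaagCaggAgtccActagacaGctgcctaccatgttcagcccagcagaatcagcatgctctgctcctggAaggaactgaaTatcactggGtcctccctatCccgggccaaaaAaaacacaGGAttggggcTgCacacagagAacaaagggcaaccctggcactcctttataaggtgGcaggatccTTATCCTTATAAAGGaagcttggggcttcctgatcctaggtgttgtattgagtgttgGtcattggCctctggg

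A further 4 windows of 300 bases, centred on the DHS summit in the list where the site was strongest, are shown because the comparisons below turn on them. They are the region with the highest fold enrichment of the cluster (16.2 kb upstream of Cyp2d10), the regions 2.4 and 17.4 kb upstream of Cyp2d9, and the region 17.9 kb downstream of the Cyp2d12 start site. Capitals mark matches to the motifs searched in them: CAAAGTCCA for HNF4A upstream of Cyp2d10, TTCNNNGAA for STAT5 at 17.4 kb, and TTGCNNAA for C/EBP at 2.4 kb and at Cyp2d12, where 3 matches lay in 1 window. The C/EBP match at 2.4 kb lay inside the male B6 peak and past the end of the male CAST peak, and the first of the 3 at Cyp2d12 straddled the start of the male CAST peak. They are reference letters, and CAST letters were not read.
Cyp2d10 upstream 16.2 kb, chr15:82253699-82253998, plus strand: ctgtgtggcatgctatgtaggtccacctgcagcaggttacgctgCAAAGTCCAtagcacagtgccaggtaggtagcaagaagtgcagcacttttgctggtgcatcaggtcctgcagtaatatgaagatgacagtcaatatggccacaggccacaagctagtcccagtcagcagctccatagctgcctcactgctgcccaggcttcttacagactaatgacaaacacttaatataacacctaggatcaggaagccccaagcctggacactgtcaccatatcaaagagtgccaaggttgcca
Cyp2d9 upstream 17.4 kb, chr15:82265278-82265577, plus strand: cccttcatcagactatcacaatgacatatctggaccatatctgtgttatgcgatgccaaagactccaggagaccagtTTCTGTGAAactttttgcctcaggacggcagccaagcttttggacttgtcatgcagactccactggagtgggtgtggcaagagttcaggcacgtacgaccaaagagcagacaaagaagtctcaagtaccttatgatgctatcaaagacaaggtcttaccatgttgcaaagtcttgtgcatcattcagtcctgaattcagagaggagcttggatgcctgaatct
Cyp2d9 upstream 2.4 kb, chr15:82280303-82280602, plus strand: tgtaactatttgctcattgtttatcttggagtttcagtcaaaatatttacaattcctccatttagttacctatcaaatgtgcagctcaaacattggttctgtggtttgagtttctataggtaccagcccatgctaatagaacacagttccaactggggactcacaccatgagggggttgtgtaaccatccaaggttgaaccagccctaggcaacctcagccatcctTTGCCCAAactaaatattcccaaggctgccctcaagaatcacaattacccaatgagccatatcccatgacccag
Cyp2d12 downstream 17.9 kb, chr15:82403318-82403617, plus strand: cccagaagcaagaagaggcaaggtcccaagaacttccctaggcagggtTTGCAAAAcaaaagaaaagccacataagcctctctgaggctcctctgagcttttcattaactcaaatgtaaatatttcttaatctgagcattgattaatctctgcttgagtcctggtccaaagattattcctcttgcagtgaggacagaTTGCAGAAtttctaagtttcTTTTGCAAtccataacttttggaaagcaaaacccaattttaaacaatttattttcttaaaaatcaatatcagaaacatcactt

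The value given for each DHS is the fold enrichment at its summit, the reads stacked at the summit over the background that MACS2 set at that place. Male B6 held 22 of the 31 regions, female B6 15, male CAST 28 and female CAST 13. Of the 51482 regions of the genome, the same lists held 38392, 25718, 39235 and 24355, so the male lists were the longer ones there too. Female CAST was the shallowest list, with a genome background of 7.94 reads against 13.9 in B6 females, 14.3 in CAST males and 15.4 in B6 males. The lowest fold enrichment listed at genome background was 1.90 in B6 males, 1.94 in B6 females, 1.90 in CAST males and 2.24 in CAST females, here called the limit of a list. A site with more local background could be listed at a slightly lower value. The promoters of all 6 hepatocyte marker genes held a DHS in every list, and those of 3 Kupffer cell, 3 bile duct and 3 lymphocyte markers held none. Endothelial promoters held a DHS for 3, 3, 2 and 1 of 3 genes (male B6, female B6, male CAST and female CAST) and stellate cell promoters for 1, 1, 1 and 0 of 3. The part of other cell types in the Cyp2d DHS was not tested.

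**Figure D1:**
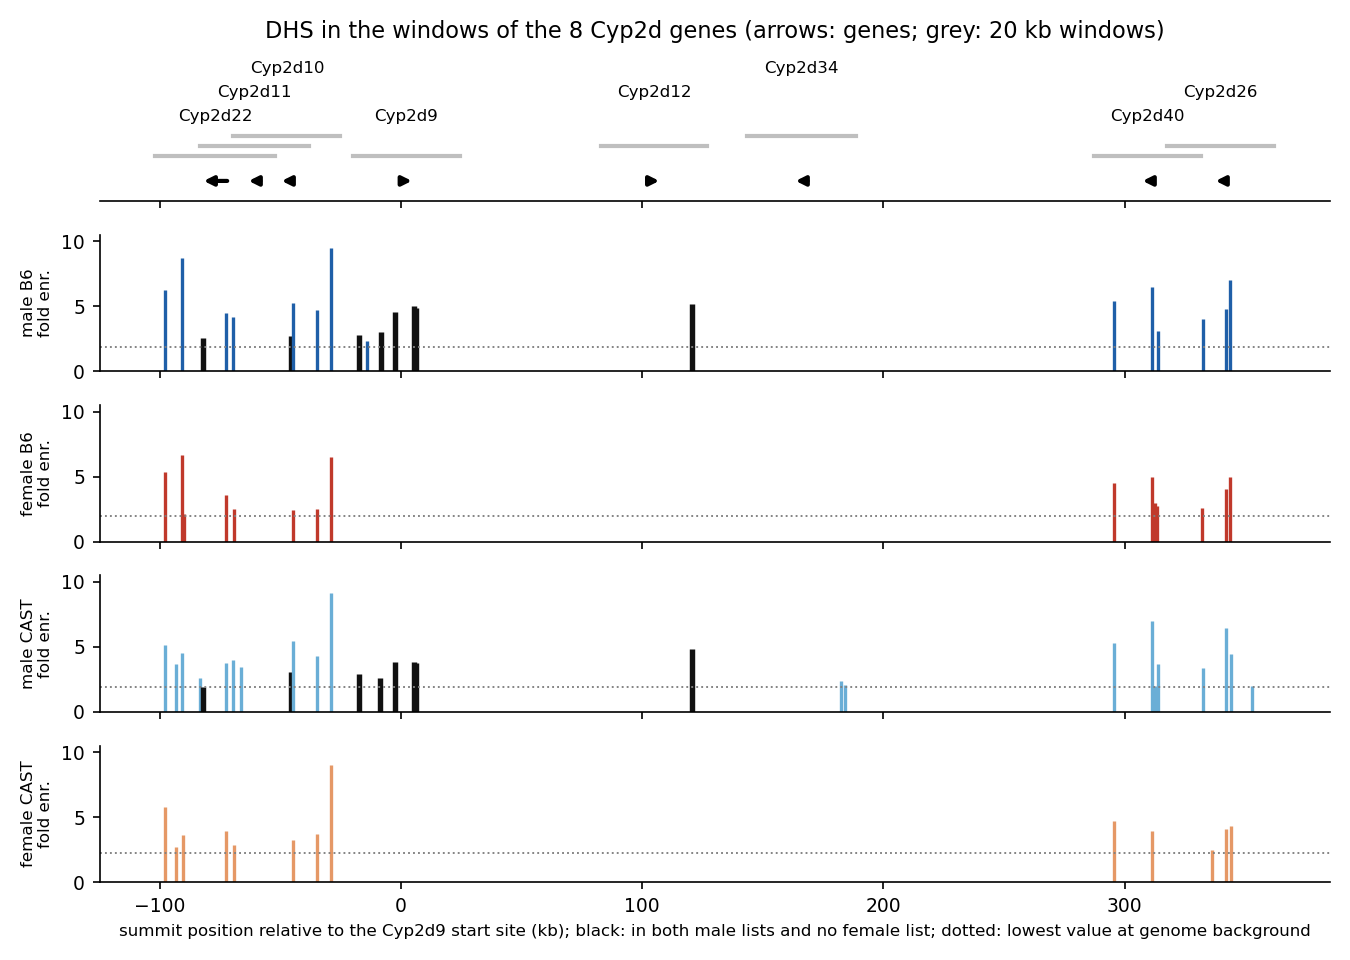
DHS in the windows of the 8 Cyp2d genes, with summit distance from the Cyp2d9 start site in kb on the horizontal axis, fold enrichment on the vertical axis and 1 panel per list. Black lines are the 8 regions found in the males of both strains and in neither female list, of which 5 surround Cyp2d9; the dotted line is the lowest value listed at genome background.

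Of the 31 regions, 11 were found in all 4 lists, where 35.6% of all regions were. A further 8 were found in the males of both strains and in neither female list, where 9.38% of all regions were, and 0 were found in the females of both strains and in neither male list, a class that held 0.0622% of all regions. No region was listed for B6 of each sex and never for CAST (3.32% of all regions were), and 1 was listed for CAST of each sex and never for B6 (3.62%). The regions found in all 4 lists were 529 to 1497 bp wide with a median of 984 bp. Those in the males of both strains and in neither female list were 308 to 1171 bp wide with a median of 520 bp. Their median fold enrichment was 3.76 in B6 males and 3.44 in CAST males, against 5.37 and 5.17 for the regions in all 4 lists.

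Cyp2d9 stood in a stretch of chromatin that was open in males of both strains, while neither female list held a DHS in its window. The window held 6 regions, of which 5 were in both male lists and 1, at 14.1 kb upstream with a fold enrichment of 2.32, in B6 males alone. The nearest female DHS lay 28550 bp from the Cyp2d9 start site in B6 and 28452 bp from it in CAST. A window with a male DHS and no female DHS was found at 1324 of 16562 genes with a male DHS. With no female DHS in the window, at least 1 region in both male lists was found at 388 of 22380 protein-coding genes and at least 2 at 44. At least 5 such male regions, a limit set at the count of Cyp2d9 itself, were found at 25 genes (0.112%), and of these 25 Cyp2d9 alone had no female DHS there. These gene counts were taken with joining at 1 bp overlap alone, and joining at 50% of both peaks left 4 of the 5 at Cyp2d9.

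The region 2.4 kb upstream of Cyp2d9 (chr15:82280056-82280642) had a fold enrichment of 4.52 in B6 males and 3.87 in CAST males, from 73 reads (95% interval 57.2 to 91.8) and 58 reads (44.0 to 75) stacked at the summit. Such intervals are exact Poisson intervals and cover counting error only. The region 5.2 kb downstream of the start site (chr15:82287160-82288330) had 5.02 in B6 males, from 98 reads (79.6 to 119), and 3.87 in CAST males, from 58 reads (44.0 to 75). Its B6 peak began just before the annotated 3′ end of the gene, and its CAST peak began past that end. At 6.2 kb downstream (chr15:82288836-82289143) the values were 4.87 in B6 males and 3.8 in CAST males. These 3 regions were the strongest of the window in both male lists.

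The more distant pair was weaker. At 8.4 kb upstream (chr15:82274059-82274540) the fold enrichment was 3.0 in B6 males and 2.62 in CAST males, and at 17.4 kb upstream (chr15:82265211-82265556) it was 2.81 and 2.88. In B6 the male values at the 5 regions were 1.45 to 2.58 times the lowest value that the female B6 list could hold at genome background. In CAST they were 1.17 to 1.73 times the female CAST limit, so that a female CAST signal at 8.4 kb more than 1.17-fold weaker than the male one would have been under the limit. The Cyp2d9 start site itself lay in no DHS in any list, and the nearest edge of a DHS was 2165 bp away in B6 males and 2340 bp away in CAST males.

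**Figure D2:**
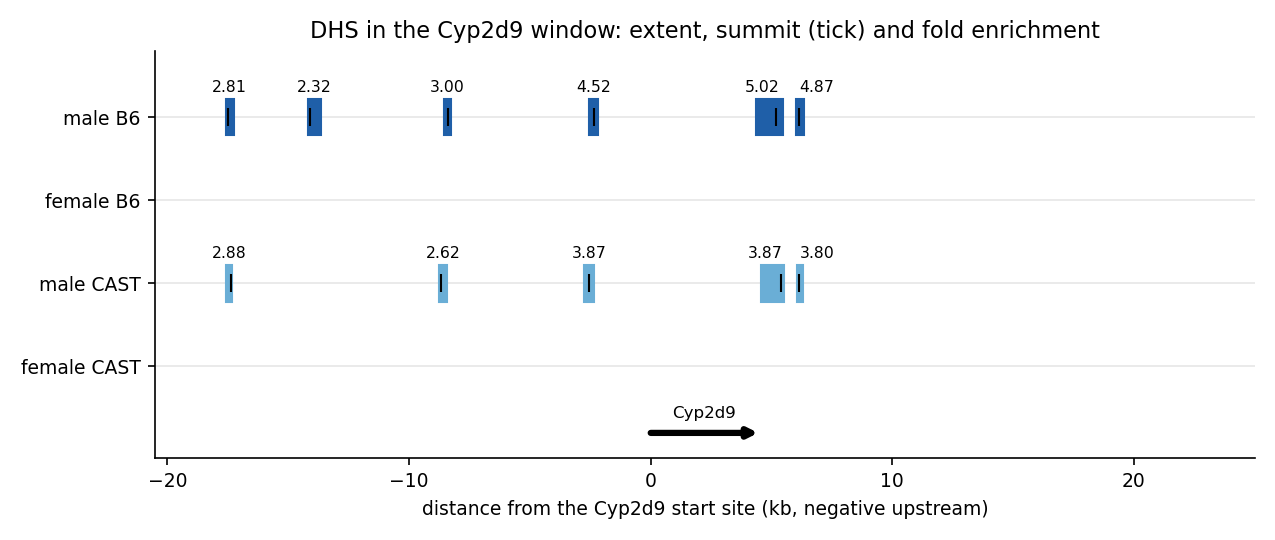
DHS in the window of Cyp2d9, with distance from its start site in kb on the horizontal axis and 1 row per list; bars give the extent of each DHS, ticks its summit and numbers its fold enrichment. Male B6 has 6 DHS and male CAST 5, and the rows of female B6 and female CAST are empty.

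Under a stricter threshold (a −log10 q of at least 15.7, the median of all peaks) 4 regions of the cluster were in the males of both strains and in neither female list, and only that near Cyp2d12 was among the 8. The male CAST values at 2.4 kb upstream and 5.2 kb downstream of Cyp2d9, at a −log10 q of 15.6 each, fell just under it. When each list was cut to its 24888 strongest peaks, 4 of the 8 remained, 3 of them at Cyp2d9. With peaks joined at 50% of both, 6 of the 8 remained, 4 of them at Cyp2d9. Those lost were 8.4 kb upstream of Cyp2d9 and 10.1 kb downstream of the Cyp2d22 start site.

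A region 17.9 kb downstream of the Cyp2d12 start site (chr15:82403342-82403652) was the strongest of the 8 male regions. Its fold enrichment was 5.20 in B6 males, from 84 reads (67.0 to 104), and 4.85 in CAST males, from 73 reads (57.2 to 91.8), and no female list held it. The male values were 2.68 times the female limit in B6 and 2.17 times in CAST. It was the sole region in the Cyp2d12 window. The remaining pair of male regions lay 0.4 kb inside Cyp2d10, in an intron (2.75 in B6 males and 3.08 in CAST males), and 10.1 kb downstream of the Cyp2d22 start site (2.59 and 1.89, the latter the lowest listed value of the cluster). At the last of these the male CAST value was 0.844 times the female CAST limit, so its absence from the female CAST list was not detectable as a sex difference at this depth.

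Promoter DHS, taken within 2.5 kb of a start site, were present in all 4 lists for Cyp2d22, Cyp2d10, Cyp2d40 and Cyp2d26. Cyp2d9 had one in the male lists alone, which was the region 2.4 kb upstream and was not counted at a distance of 1 kb. Cyp2d11, Cyp2d12 and Cyp2d34 had none in any list.

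At Cyp2d10 the region covering the promoter (chr15:82237592-82238152) had a fold enrichment of 5.26 in B6 males, 2.41 in B6 females, 5.44 in CAST males and 3.24 in CAST females. Both male values were above both female values. The study set a limit of 1.5-fold for sex-biased DHS, together with a differential test and a false discovery limit that were not applied here. At Cyp2d10 the ratio of male to female was 2.18 in B6 and 1.68 in CAST. By fold enrichment this was the sole shared region of the cluster past 1.5-fold in both strains. The reads at the summit, each divided by the genome background of its list, gave ratios of 2.2 (exact 95% interval 1.47 to 3.37) in B6 and 1.63 (1.05 to 2.6) in CAST. On that scaling 6 of the 11 regions found in all lists passed 1.5-fold in both strains, against 30.2% of such regions in the genome. They included the promoter regions of Cyp2d22, Cyp2d40 and Cyp2d26. The ratio 2.6 kb upstream of Cyp2d22, at 2.71 in B6 and 2.07 in CAST, was above that of the Cyp2d10 promoter. In CAST the ratios over the start sites of Cyp2d40 (2.41) and Cyp2d26 (2.08) were above it too, while in B6 they were below it. In the males the Cyp2d10 DHS reached over the start site. In the females its edge lay 88 bp (B6) and 84 bp (CAST) upstream of that site.

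At Cyp2d40 the region over the start site (chr15:82593927-82594910), with its summit in an intron, had 6.46 in B6 males, 5.0 in B6 females, 6.99 in CAST males and 3.98 in CAST females. The male values exceeded the female value of the same strain, by 1.29-fold in B6 and 1.76-fold in CAST. Summit reads over the genome background gave a male to female ratio of 1.75 (1.34 to 2.30) in B6. In CAST the ratio was 2.41 (1.74 to 3.42), and the genome medians were 1.65 and 1.38. At 0.8 kb upstream a weaker region was listed in B6 females (2.97) and CAST males (2.02) alone, and at 2 kb upstream another was listed in B6 males (3.09), B6 females (2.75) and CAST males (3.71) and not in CAST females.

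At Cyp2d26 the region over the start site (chr15:82624439-82625271) had 4.83 in B6 males, 4.03 in B6 females, 6.46 in CAST males and 4.09 in CAST females. Male CAST was the highest of these. Summit reads over the genome background gave a male to female ratio there of 1.92 (1.51 to 2.45) in B6 and 2.08 (1.57 to 2.79) in CAST. The region 2 kb upstream (chr15:82626443-82627073) had 7.02 in B6 males, 4.97 in B6 females, 4.47 in CAST males and 4.36 in CAST females, with male B6 the highest.

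At Cyp2d22 the region over the promoter and the first part of the gene (chr15:82209761-82211244) had 4.46 in B6 males, 3.56 in B6 females, 3.75 in CAST males and 3.91 in CAST females. The female CAST peak alone stopped short of the start site, by 230 bp. The reads at the summit over the genome background gave a male to female ratio of 1.99 (1.6 to 2.5) in B6 and 1.51 (1.12 to 2.07) in CAST, against genome medians of 1.65 and 1.38. The region 2.6 kb upstream (chr15:82212901-82213429) had 4.21 in B6 males, 2.49 in B6 females, 3.99 in CAST males and 2.88 in CAST females, and both male values were above both female values.

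**Figure D3:**
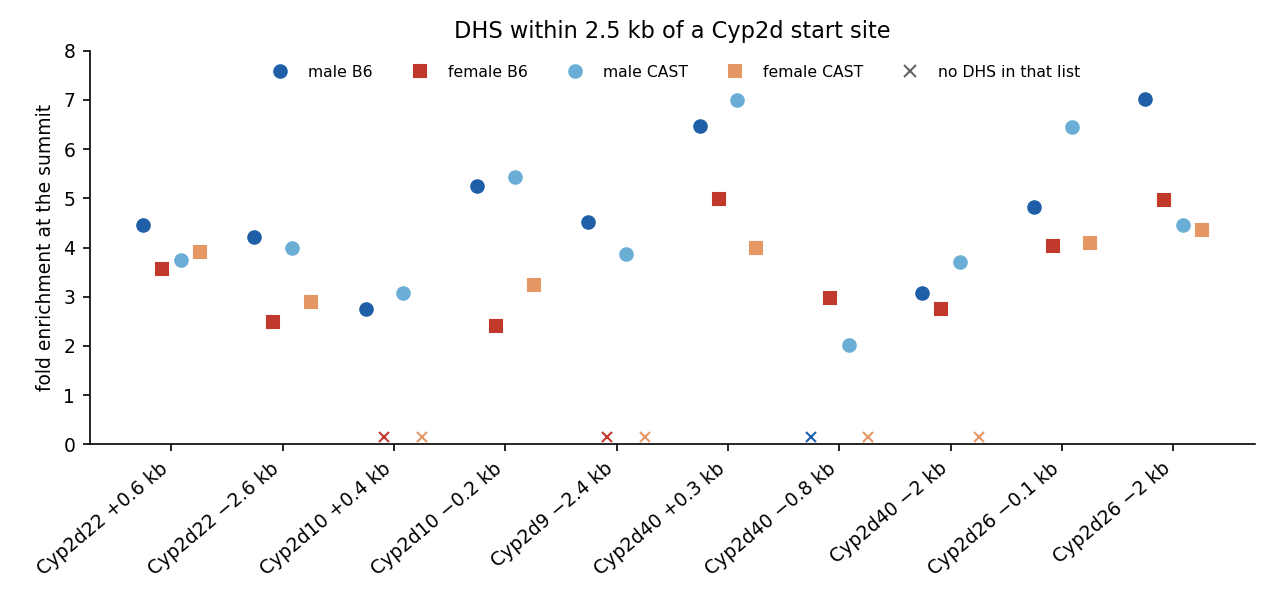
Fold enrichment at the summit (vertical axis) of the 10 regions within 2.5 kb of a Cyp2d start site, named by gene and kb from the start site, in the 4 lists; crosses mark lists without a DHS. At Cyp2d10 −0.2 kb the male values are 5.26 and 5.44 and the female values 2.41 and 3.24, and at Cyp2d9 −2.4 kb the female lists have crosses.

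The nearest DHS of any list lay 7824 bp from the start site of Cyp2d11, 17798 bp from that of Cyp2d12 and 13721 bp from that of Cyp2d34. The window of Cyp2d34 held 2 weak regions, in CAST males alone, with fold enrichments of 2.36 and 2.1. A region in all 4 lists (3.63 in B6 males, 3.01 in B6 females, 2.92 in CAST males and 2.93 in CAST females) lay 462 bp past the edge of that window and was not counted. Reads that map to more than 1 place were not used, so the letters around each start site bear on what could be seen. Within 500 bp of the start site, 66.8% of the 50-base words of Cyp2d11 and 68.2% of those of Cyp2d9 occurred once in mm9, against a median of 100% over 22380 protein-coding promoters, of which 7.77% and 7.94% were as low or lower. The share was 97% at Cyp2d12, 92.7% at Cyp2d34, 92.1% at Cyp2d10, 87.4% at Cyp2d40, 96.7% at Cyp2d22 and 100% at Cyp2d26. Cyp2d12 and Cyp2d34, without a promoter DHS, lay within the range of the 4 genes that had one in every list. Over the whole windows their shares were the lowest of the 8 genes, 70.5% and 77.3% against 79.2% to 92.4%. The part of repeated sequence in the missing DHS of Cyp2d9, Cyp2d11, Cyp2d12 and Cyp2d34 was not tested. Within the 31 regions the share was 85.9% to 100%.

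The sexes were compared within each strain. In B6, 24 regions were in at least 1 list, of which 9 were in males and not in females (36.4% of such regions in the genome) and 2 were in females and not in males (5.13%). In CAST, 29 regions were in at least 1 list, of which 16 were in males and not in females (40.3%) and 1 in females and not in males (3.9%). The share of male regions in B6 was thus near the background of the genome. With lists of equal size the counts were 4 against 1 in B6 and 6 against 1 in CAST. The genome shares above belong to the uncut lists and were not computed at equal size. These last counts therefore cannot be set against a background.

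The regions found in females and not in males of a strain were weak and differed between the strains. They lay 17.9 kb downstream of the Cyp2d22 start site (2.14 in B6 females) and 0.8 kb upstream of Cyp2d40 (2.97 in B6 females) in B6, and 5.7 kb downstream of the Cyp2d26 start site (2.46 in CAST females) in CAST. The region near Cyp2d40 was in CAST males too, with a value of 2.02, so it was in no single sex across the strains.

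Among regions in both sexes, the median male to female ratio of fold enrichment was 1.31 in B6 (13 regions, all above 1) and 1.21 in CAST (12 regions, 10 above 1). Over all shared regions of the genome it was 1.32 in B6 and 1.19 in CAST, and the Cyp2d medians divided by these were 0.993 and 1.01. A male excess of at least 1.5-fold was found at 4 of 13 in B6 (24.3% of shared regions in the genome) and at 3 of 12 in CAST (12.5%). A female excess of that size was found at 0 in B6 (0.0423%) and at 0 in CAST (0.395%). The region 10.4 kb upstream of Cyp2d10 had 4.71 in B6 males, 2.48 in B6 females, 4.33 in CAST males and 3.69 in CAST females, a ratio of 1.90 in B6 and 1.17 in CAST.

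**Figure D4:**
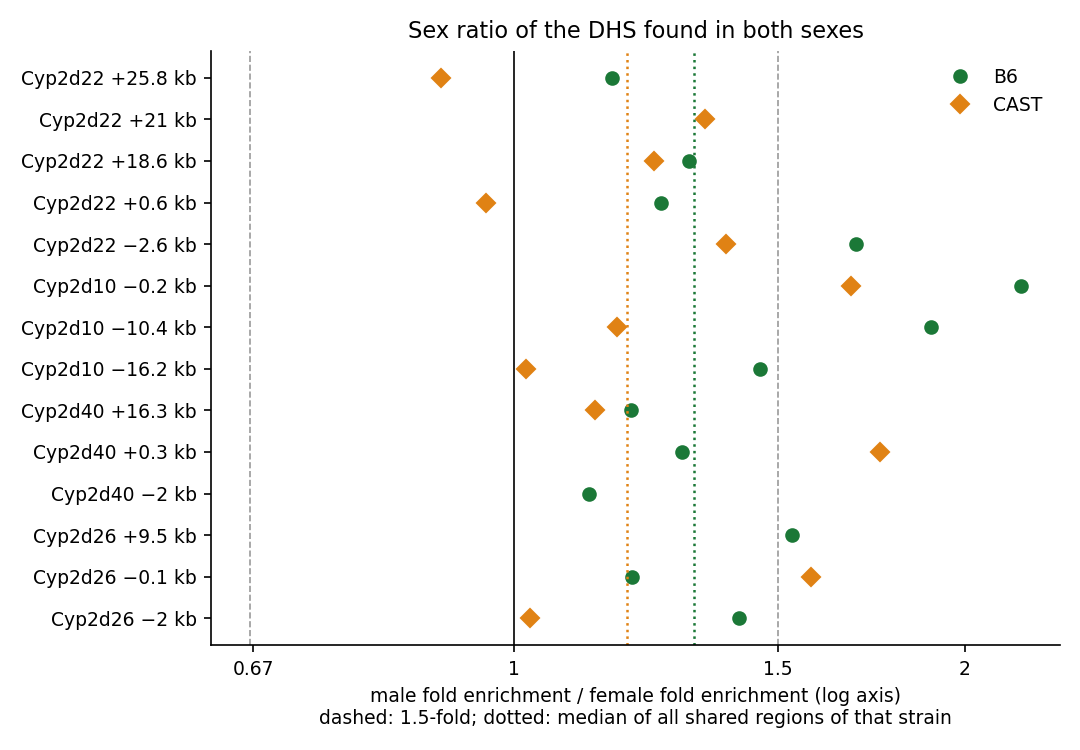
Male over female fold enrichment (horizontal log axis) of the 14 regions found in both sexes of at least 1 strain, named by gene and kb from the start site; circles are B6 and diamonds CAST. Cyp2d10 −0.2 kb alone lies right of the dashed 1.5-fold line in both strains, at 2.18 and 1.68.

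The region with the highest fold enrichment of the cluster lay 16.2 kb upstream of Cyp2d10 (chr15:82253212-82254438), between Cyp2d10 and Cyp2d9. Its fold enrichment was 9.51 in B6 males, 6.52 in B6 females, 9.18 in CAST males and 9.01 in CAST females. In B6 females the region 18.6 kb downstream of the Cyp2d22 start site stood higher, at 6.67. At 16.2 kb female B6 had the lowest fold enrichment and the other 3 lists lay close together. Summit reads over the genome background gave a male to female ratio there of 2.34 (1.88 to 2.92) in B6. In CAST this ratio was 1.37 (1.11 to 1.71), and the genome medians were 1.65 and 1.38. The 4 summits fell within 12 bp of each other, the closest of the 11 regions found in all lists, whose summits spanned a median of 72 bp and at most 114 bp.

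The strains were compared within each sex. Of 29 regions in either male list, 7 were in CAST males and not in B6 males (20.9% of such regions in the genome) and 1 was in B6 males and not in CAST males (19.1%). Of 17 regions in either female list, 2 were in CAST females and not in B6 females (18.3%) and 4 in B6 females and not in CAST females (22.6%), the shallower list. Under the stricter threshold the male counts turned to 3 in CAST and not B6 against 4 in B6 and not CAST. No share of all regions was computed at that threshold.

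The region listed for CAST of each sex and never for B6 lay 21 kb downstream of the Cyp2d22 start site (chr15:82188942-82190002). Its fold enrichment was 3.65 in CAST males, from 164 reads (140 to 191), and 2.73 in CAST females, from 47 reads (34.5 to 62.5). These were 1.93 and 1.40 times the lowest value listed at genome background in the B6 list of the same sex.

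The neighbouring region 18.6 kb downstream of the Cyp2d22 start site (chr15:82191421-82192433) showed the opposite order. It had 8.74 in B6 males, 6.67 in B6 females, 4.54 in CAST males and 3.66 in CAST females. Both B6 values were above both CAST values, by 1.93-fold in males and 1.82-fold in females, and it was the sole region past 1.5-fold between the strains in both sexes. The ratio of CAST to B6 summit reads, each over its genome background, was 0.621 (0.497 to 0.773) in males and 0.601 (0.402 to 0.880) in females. Another site of this intergenic stretch, 25.8 kb downstream, was the promoter of Ndufa6, a subunit of mitochondrial complex I, with 6.22 in B6 males, 5.34 in B6 females, 5.17 in CAST males and 5.78 in CAST females.

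Among regions in both strains, the median CAST to B6 ratio of fold enrichment was 0.919 in males (21 regions, 6 above 1) and 1.08 in females (11 regions, 8 above 1), against 1.06 and 1.19 over the genome. A CAST excess of at least 1.5-fold in fold enrichment was found at 0 of 21 in males (8.81% of shared regions in the genome) and at 0 of 11 in females (15%). A B6 excess was found at 2 of 21 in males (3.17%) and at 1 of 11 in females (0.823%). In males these were the regions 18.6 kb downstream of the Cyp2d22 start site (1.93-fold) and 2 kb upstream of Cyp2d26 (1.57-fold). With summit reads over the genome background in place of fold enrichment, a CAST excess was found at 0 of 21 in males (13.3%) and at 2 of 11 in females (28.6%), the regions 16.2 kb and 10.4 kb upstream of Cyp2d10, with ratios of 1.81 (1.39 to 2.36) and 1.56 (0.937 to 2.58). A B6 excess was then found at 4 of 21 in males (6.43%) and at 1 of 11 in females (1.27%). The 4 male regions were both of those with a B6 excess in fold enrichment and 2 at Cyp2d9, 5.2 and 6.2 kb downstream, with CAST to B6 ratios of 0.638 (0.453 to 0.891) and 0.66 (0.466 to 0.928). By fold enrichment the CAST to B6 ratio at the 5 male regions around Cyp2d9 was 0.771 to 1.03, with the lowest at 5.2 kb downstream.

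**Figure D5:**
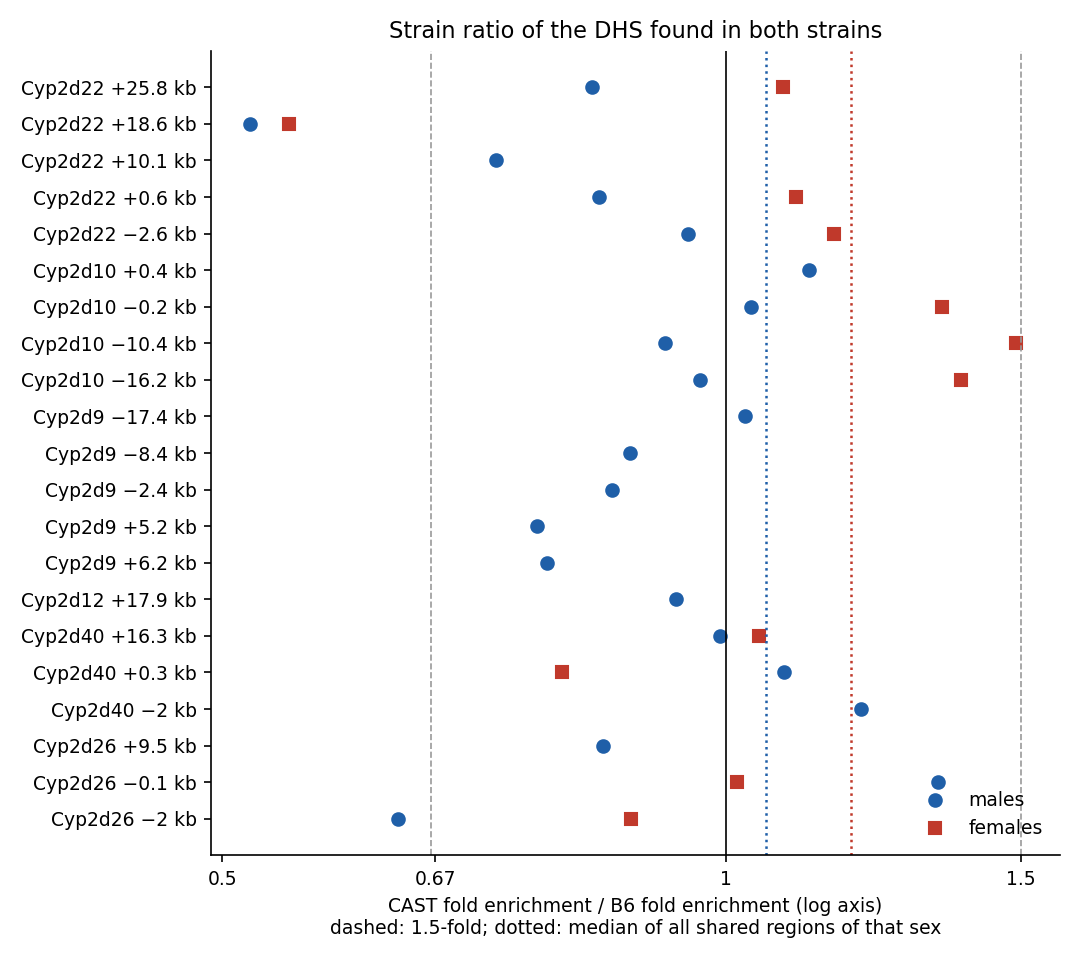
CAST over B6 fold enrichment (horizontal log axis) of the 21 regions found in both strains of at least 1 sex, named by gene and kb from the start site; circles are males and squares females. Cyp2d22 +18.6 kb lies left of the dashed line in both sexes, at 0.519 and 0.548, and no region lies right of the 1.5-fold line.

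Upstream of Cyp2d9 the male DHS also differed between the strains in place. At 8.4 kb the CAST peak began 191 bp and ended 164 bp before the B6 peak on the plus strand, with summits 264 bp apart. At 2.4 kb it began 190 bp and ended 175 bp before it, with summits 211 bp apart. These were 2 of 21 regions in both male lists in which both ends moved by at least 150 bp the same way, as 2.93% of such regions in the genome did. At 5.2 kb downstream the summits lay 216 bp apart within a DHS of about 1 kb. In all, 3 of 21 regions had male summits over 150 bp apart, where 15% of such regions in the genome did, so the count of moved summits was at the background.

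The letters under the DHS were compared with those of the genome. The 300 bases at the summit had a median GC content of 46.0% and a median of 0.5 CpG at the 8 regions in the males of both strains and in neither female list, and of 50.3% and 3 CpG at the 11 regions in all 4 lists. Over the genome the same classes had medians of 47.0% and 4 CpG, and of 54.3% and 8 CpG. Motifs were searched on both strands in the same 300 bases. The STAT5 motif TTCNNNGAA was held by 3 of 31 regions (10.2% of all regions), the FOXA motif TGTTTAC by 2 (6.59%), the C/EBP motif TTGCNNAA by 5 (17.2%) and the HNF4A motif CAAAGTCCA by 3 (1.67%). The HNF1 motif GTTAATNAT (2.03%) and the ETS motif CTTCCGG (5.35%) had 0 matches in these windows. Of the 8 male regions, 1 held the STAT5 motif (17.4 kb upstream of Cyp2d9), 3 the C/EBP motif, 1 the HNF4A motif (8.4 kb upstream of Cyp2d9) and 0 the FOXA motif. Over the genome, 11.1%, 19%, 2.15% and 7.35% of the regions of the same class held these motifs. The other HNF4A matches lay 16.2 kb upstream of Cyp2d10, 102 bp from the summit, and at Cyp2d40, 112 bp from the summit of the region over the start site.

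Of 32 other Cyp2 genes in the annotation, 9 had a promoter DHS in all 4 lists, 3 in the males of both strains and in neither female list (Cyp2a12, Cyp2c37 and Cyp2c55), 0 in the females of both strains and in neither male list and 15 in none. Among the Cyp2d genes these counts were 4, 1, 0 and 3 of 8. Of the 9 others with a promoter DHS in all lists, Cyp2c50 lay farthest from an even sex ratio, with highest promoter values of 8.07 in B6 males, 3.55 in B6 females, 7.28 in CAST males and 3.13 in CAST females, and Cyp2c29 lay nearest, with 3.81, 3.36, 4.09 and 4.0. The redox partners Por, Cyb5 and Cyb5r3, which pass electrons to P450 enzymes, had promoter DHS in all 4 lists.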

How the data were processed

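DNase-seq was carried out on nuclei from the livers of B6 and CAST mice of either sex, 4 libraries per group. Per the labels and the study's methods, the authors mapped uniquely placed reads with Bowtie2 2.2.9 to mm9 (CAST reads to mm9 carrying CAST variants, with coordinates then returned to mm9), merged the 4 libraries of a group and called DHS with MACS2 2.1.1. They removed blacklisted regions and peaks made of duplicated reads. The deposited lists give the fold enrichment of the summit (a ratio to local background), its −log10 p-value, its −log10 q-value (a score of confidence over the whole list) and the summit position. The methods name input DNA as the background for calling peaks. The input libraries they describe belong to ChIP-seq, and which background served the DNase-seq lists could not be told from the lists. Nuclei had been prepared in sets with at most 2 replicates of a group, and in pooled lists these sets cannot be told apart.

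From these lists the summit reads were recovered as the whole number whose Poisson p-value matched the deposited one to within 0.01 of −log10 p, for 97.6% to 99.9% of DHS; this step and the joining were tested on simulated data. Depth is given as the genome background of each list in reads, and intervals cover counting error only. Genes were those of GENCODE vM1 on NCBIM37 (mm9). Regions were described singly when within 2.5 kb of a start site, when found in 1 sex alone, the same in both strains, or in 1 strain alone in both sexes, when past 1.5-fold in the same direction in both strains or both sexes, or when the strongest or weakest. The region 10.4 kb upstream of Cyp2d10, the members of classes of 5 or fewer and the site at Ndufa6 were named after their values were seen. Coding and promoter sequences were aligned with Biopython 1.88, and statistics used numpy 2.4.6 and scipy 1.17.1. Windows, joining, thresholds, scaling and promoter distance were varied. Genes, lists and motifs were chosen with earlier results of these data known. Of the fixed gene list, 35 of 37 names were in the annotation.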

Additional observations from a re-analysis of the deposited data

How the results depend on the processing

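With windows of 10 or 50 kb, joining at 50% of both peaks, a stricter −log10 q, lists of equal size, pileups scaled to 1 genome background and regions with at least 50% unique 50-base words, every count kept the order of its larger side except that of regions in 1 strain in males under the stricter threshold. Under the stricter threshold the regions at the members fell from 31 to 19, those in 1 sex in CAST from 17 to 10, those in 1 strain in females from 6 to 3, and those in the males of both strains and in neither female list from 8 to 4. With lists of equal size, those in 1 sex fell from 11 to 5 in B6 and from 17 to 7 in CAST, those in 1 strain in males from 8 to 3, and those in the males of both strains and in neither female list from 8 to 4. With windows of 10 kb, those in 1 strain in males fell from 8 to 3. The first 2 settings keep fewer peaks and the last a shorter span, by construction. The last count above (males of both strains, neither female list) was varied after the data had been seen. For all these counts, shares of all regions were computed at the main setting alone. With the pileups scaled to the lowest genome background, 7 of the 8 regions in the males of both strains and in neither female list remained, without that at Cyp2d22. That setting matched the background alone, and the male lists still held more peaks (36893 in B6 and 37914 in CAST) than the female lists (25095 and 24887). The median male to female ratio, divided by that of all shared regions, was 0.993 in B6 and 1.01 in CAST, and the CAST to B6 ratio in females was 0.910. From summit reads over the genome background the male to female ratio was 1.92 in B6 and 1.57 in CAST, against 1.65 and 1.38 over the genome. Within 1 kb of a start site, 0 genes had a promoter DHS in the male lists alone, against 1 within 2.5 kb. No paired analysis was possible because the lists analysed here are pooled, 1 per group, so that no replicate was left out either; the 16 single libraries were not analysed here. Depth limits the CAST female list most: a site there under a fold enrichment of 2.24 at genome background would not be listed.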

Other observations

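At the edges of the windows, a region 3942 bp outside the window of Cyp2d22 was in all 4 lists, with fold enrichments of 10.6 in B6 males, 9.99 in B6 females, 13.6 in CAST males and 11.4 in CAST females. A pair of regions lay 462 and 2785 bp outside the window of Cyp2d34 and were also in all 4 lists, the second with 3.91, 3.10, 4.41 and 3.81. The annotation placed other start sites within the windows of Cyp2d genes: Ndufa6, the miRNA gene AC113593.1 beside Cyp2d10 and Gm5062 between Cyp2d40 and Cyp2d26. The DHS nearest to Gm5062 (chr15:82614362-82615505) had 4.01 in B6 males, 2.61 in B6 females and 3.38 in CAST males and was not listed in CAST females.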
